A study of Oryza sativa with 6 samples.

Results

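The momilactone gene cluster of rice was followed here as 5 of the 36844 genes in the deposited table of root counts. The 5 genes were taken by their identifiers, Os04g0178300 (CPS4), Os04g0178400 (CYP99A3), Os04g0179200 (MAS), Os04g0179700 (KSL4) and Os04g0180400 (CYP99A2). The identifiers place all 5 on chromosome 4 of the IRGSP-1.0 build. A RefSeq gene table of another rice assembly, ASM3414082v1, holds genes with these 5 symbols on chromosome 4 in the same order. The count table gives no start, end or exon positions.

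Momilactones are diterpenoids that rice makes in its husks, leaves and roots, where they act against microbes and, once released from the roots, against neighbouring plants. Their synthesis starts from geranylgeranyl diphosphate, which CPS4 closes to syn-copalyl diphosphate and KSL4 converts further to syn-pimaradiene. The cytochromes P450 CYP99A2 and CYP99A3 oxidise this hydrocarbon, and MAS, a short-chain dehydrogenase, acts late in the pathway. The genes for these steps lie side by side, which is unusual for a plant pathway and raises the question of whether the neighbours move together.

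RNA was sequenced from roots of HHZ and 9311, elite Chinese rice cultivars, and each cultivar gave 3 replicate libraries. All plants were grown in hydroponic culture, were moved at 50 days after germination (50 DAG) to solution free of NH4NO3 for 2 days, and were sampled after 3 h back in solution with 1 mM NH4NO3. Both cultivars received this treatment, so the libraries compare cultivars and hold no untreated roots. The labels do not say whether replicates came from separate plants or containers, and the p-values measure the spread between these libraries, which may be technical. The totals lay between 16622441 and 22646162 counts per library. HHZ replicate 3 differed most from its own cultivar: the chi-square per degree of freedom over genes was 85.2 and 73.1 against HHZ replicates 1 and 2, 19.6 between these, and 25.0 to 37.8 among the 9311 libraries. The comparison of the cultivars is therefore given with and without HHZ replicate 3. The symbols of root and shoot marker genes could not be paired with identifiers, so the labelled tissue was not checked against its markers.

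Levels are in CPM, a gene's counts relative to the total of its library, with edgeR's TMM scaling. CPM is not corrected for gene length, so levels are compared between libraries and not between genes.

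Transcripts of 4 of the 5 cluster genes were counted in every library, and the mean of each was higher in 9311 roots than in HHZ roots, by 2.62-fold to 4.42-fold. With all 6 libraries, edgeR's quasi-likelihood test over all genes called none of these differences, and DESeq2 called those of CPS4 and CYP99A3. The genes moved together over libraries as well as between cultivars: they were lowest in HHZ replicates 1 and 2, highest in 9311 replicate 2, and in HHZ replicate 3 they approached or exceeded the lowest 9311 library. The 5th gene, CYP99A2, had no counts in any library.

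CPS4 makes syn-copalyl diphosphate, the substrate of KSL4. It was counted at 12.2, 14.9 and 31.9 CPM in replicates 1, 2 and 3 of HHZ, and the same replicates of 9311 held 62.3, 110.6 and 39.0 CPM. The cultivars did not overlap, but HHZ replicate 3 lay closer to 9311 replicate 3 than to the other HHZ libraries. The mean of CPS4 in 9311, 70.6 ± 36.6 CPM (SD, n = 3), compared with 19.7 ± 10.7 CPM (SD, n = 3) for HHZ. The log2 fold change of CPS4 was 1.84 with a standard error of 0.50, and edgeR's quasi-likelihood test gave an unadjusted p of 0.00869 and an adjusted p of 0.0909.

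KSL4 takes the product of CPS4 to the hydrocarbon skeleton of the momilactones, and it had the fewest counts of the 4 genes. It reached 7.08, 10.1 and 1.76 CPM in 9311 replicates 1, 2 and 3, from 147, 193 and 30 counts. In HHZ it reached 0.131, 0.341 and 3.82 CPM in replicates 1, 2 and 3, from 3, 8 and 83 counts. HHZ replicate 3 thus lay above 9311 replicate 3, and the cultivars overlapped for KSL4. KSL4 averaged 6.33 ± 4.25 CPM (SD, n = 3) in 9311, while HHZ averaged 1.43 ± 2.07 CPM (SD, n = 3). edgeR fitted a log2 fold change of 2.15 with a standard error of 1.17 and an adjusted p of 0.353. The level in HHZ replicate 1 rests on 3 counts. The ratio of 9311 replicate 2 to this library was 77.5, with an exact 95% counting interval from 26.1 to 379 that covers counting error only.

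CYP99A3 oxidises the skeleton made by KSL4. The 3 HHZ libraries held 8.87, 14.7 and 41.9 CPM of its transcript, replicate 3 being the highest, and the 3 libraries of 9311 held 55.7, 115.3 and 47.9 CPM. As for CPS4, the cultivars did not overlap, and HHZ replicate 3 came close to 9311 replicate 3. CYP99A3 averaged 73.0 ± 36.9 CPM (SD, n = 3) in 9311, while HHZ averaged 21.8 ± 17.6 CPM (SD, n = 3). The log2 fold change was 1.74 with a standard error of 0.63, at an unadjusted p of 0.0294 and an adjusted p of 0.178 in edgeR.

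CYP99A2 is a second cytochrome P450 of the same family. It had 0 counts in all 6 libraries, which allows a level of up to 0.128 to 0.176 CPM per library, the CPM of 3 counts. No fold change can be given for it. CYP99A2 and CYP99A3 are close relatives, and the gene counts of STAR hold only reads that align to a single place in the reference. A transcript of CYP99A2 whose reads align equally well to both genes, or whose sequence differs from the reference in both cultivars, could therefore go uncounted, and neither was tested.

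MAS, the dehydrogenase of the late steps, was counted at 1.75 and 2.64 CPM in HHZ replicates 1 and 2 but at 31.8 CPM in HHZ replicate 3. The 9311 libraries held 30.8, 46.2 and 17.9 CPM in replicates 1, 2 and 3. HHZ replicate 3 exceeded both 9311 replicates 1 and 3, so that the cultivars overlapped. For 9311 the mean was 31.6 ± 14.2 CPM (SD, n = 3), and for HHZ it was 12.1 ± 17.1 CPM (SD, n = 3), an SD above the mean. For MAS, edgeR fitted a log2 fold change of 1.39 with a standard error of 1.07 and an adjusted p of 0.518.

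**Figure D1:**
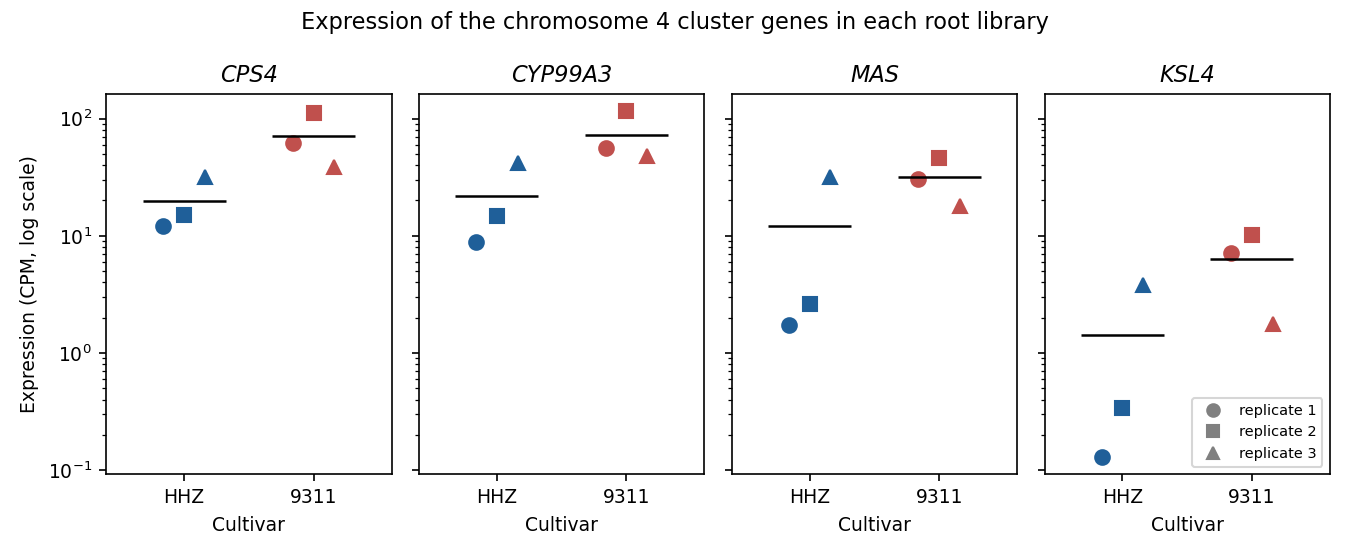
Expression in CPM (log scale) of CPS4, CYP99A3, MAS and KSL4 in HHZ (blue) and 9311 (red), with 1 point per library, the symbol giving the replicate, and the bar giving the mean of 3 libraries. CYP99A2, at 0 counts in every library, cannot be drawn on a log scale, and HHZ replicate 3 reaches 31.8 CPM for MAS, above 9311 replicates 1 and 3.

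Of the 4 genes that passed the filter on low counts, 0 had an adjusted p under 0.05 in edgeR, and 2 (CPS4 and CYP99A3) had an unadjusted p under 0.05. Over all 22554 genes tested, 6.51% were called in either direction and 3.25% were called higher in 9311. Every library of 9311 lay above every library of HHZ for 2 of the 4 genes. This was so for 13.0% of all genes tested, and 27.2% had no overlap in either direction. The median log2 fold change of the 4 genes was 1.79 and that of all genes tested was -0.01. DESeq2 called CPS4 (adjusted p = 0.00257) and CYP99A3 (adjusted p = 0.0297) but not MAS (0.601) or KSL4 (0.217), where 5.76% of the genes with an adjusted p were called higher in 9311. limma-voom called none of the 4. Since these were whole roots, fewer cells that express the cluster and less RNA per cell cannot be told apart.

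The summed CPM of the 5 genes put the libraries in 1 order. The lowest sums, 23.0 and 32.6 CPM, belonged to HHZ replicates 1 and 2. The sum was 106.5 CPM in 9311 replicate 3 and 109.4 CPM in HHZ replicate 3, and 9311 replicates 1 and 2 had 155.9 and 282.3 CPM. HHZ replicate 3 and 9311 replicate 3 were thus nearly equal in the sum. The mean sum of 9311, 182 ± 90.7 CPM (SD, n = 3), was 3.30 times the 55.0 ± 47.4 CPM (SD, n = 3) of HHZ. Without HHZ replicate 3 the ratio of the means was 6.53. A two-sided exact permutation test of the sum gave p = 0.2, where 3 libraries against 3 cannot give a p below 0.1. When counts were divided by library totals alone, 9311 replicate 3 came out above HHZ replicate 3 and p reached 0.1.

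Within each cultivar the 4 counted genes ranked the libraries alike. In 9311, replicate 2 was highest and replicate 3 lowest for each of the 4 genes. In HHZ, replicate 3 was highest and replicate 1 lowest for each of the 4. Of all genes tested, 3.86% (871 genes) showed this pair of orders. Over the 6 libraries, Pearson's r of log2(CPM + 0.5) was between 0.916 (CPS4 with MAS) and 0.977 (CPS4 with CYP99A3) for the 6 pairs of genes. Exact permutation tests of Pearson's r gave adjusted p-values between 0.00833 and 0.00972 over these 6 pairs. The raw p-values of the same tests lay between 0.00139 and 0.00972 (n = 6). All permutations of r and rho shuffled the 6 libraries without regard to cultivar. Their p-values therefore do not separate the difference between cultivars from movement among libraries. Spearman's rho was 1.00 for CPS4 with CYP99A3 (exact permutation p = 0.00278, adjusted p = 0.0167, n = 6). It was 0.943 for each of the 3 pairs with KSL4 (exact permutation p = 0.0167, adjusted p = 0.0250), and 0.829 for MAS with CPS4 and for MAS with CYP99A3 (exact permutation p = 0.0583, adjusted p = 0.0583), the latter not under the threshold.

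The correlations were then computed without the 2 libraries farthest from the median of the first gene of each pair. For the pairs with CPS4 these were 9311 replicate 2 and HHZ replicate 1, and r lay between 0.875 and 0.954. For the other pairs they were HHZ replicates 1 and 2, and r was 0.713 for CYP99A3 with MAS, 0.755 for CYP99A3 with KSL4 and 0.929 for MAS with KSL4. The median r of the 6 pairs was 0.958 with all libraries and 0.985 without HHZ replicate 3. With each library taken as its deviation from the mean of its cultivar, r lay between 0.874 and 0.958. The genes thus also moved together among libraries of the same cultivar. In standardised units averaged over the 4 genes, the largest deviation was that of HHZ replicate 3, at 1.47. The other libraries lay between -0.979 and 0.833. On these deviations, 4.47% of the other genes tested also had an r over 0.9 with the mean profile of the 4. With 3 libraries per cultivar, no correlation within a single cultivar was tested.

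**Figure D2:**
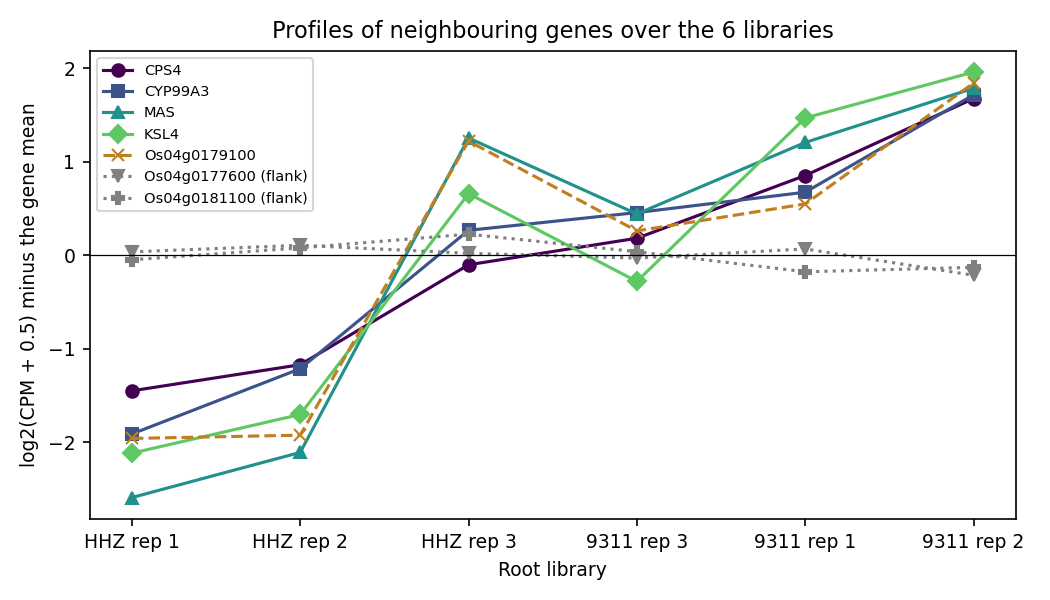
log2(CPM + 0.5) of each gene minus its mean over the 6 libraries, with 1 line per gene joining its values only to ease reading, for CPS4, CYP99A3, MAS, KSL4, the gene Os04g0179100 between CYP99A3 and MAS, and the flanking genes Os04g0177600 and Os04g0181100 (dotted). The genes of the stretch run from low values in HHZ replicates 1 and 2 to high values in 9311 replicate 2, while the flanking genes drawn stay near 0. Os04g0176200 and Os04g0182200, flanking genes with an r of 0.932 and 0.887 with the mean profile of the cluster, are not drawn.

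The neighbours did not move in proportion. The highest library exceeded the lowest by 9.05-fold for CPS4, 13.0-fold for CYP99A3, 26.5-fold for MAS and, from 3 counts in the lowest, 77.5-fold for KSL4. The ratio of CYP99A3 to CPS4, which stand next to each other, varied least. CYP99A3 had 0.725, 0.983 and 1.31 times the counts of CPS4 in the HHZ libraries (replicates 1, 2 and 3) and 0.894, 1.04 and 1.23 times in those of 9311. The ratio of MAS to CPS4 was 0.418 to 0.493 in the 9311 libraries, 0.143 and 0.177 in HHZ replicates 1 and 2, and 0.997 in HHZ replicate 3. No difference of these ratios between the cultivars was detected by a two-sided exact permutation test (p = 0.9 for CYP99A3, 1.0 for MAS and 0.5 for KSL4, n = 3 per cultivar), which cannot give a p below 0.1 with these numbers and so could not have passed the threshold.

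MAS thus had its lowest and its highest share of the cluster in HHZ. It took 7.60% (exact 95% interval 5.49 to 10.2) and 8.09% (6.26 to 10.3) of the summed counts in HHZ replicates 1 and 2, and 29.1% (27.3 to 30.9) in HHZ replicate 3. In 9311 its share was 16.4% to 19.7%. The share of CPS4 went the other way, with 53.2% and 45.8% in HHZ replicates 1 and 2. It was 29.2% (27.3 to 31.0) in HHZ replicate 3 and 36.6% to 40.0% in 9311. Shares of a sum are tied, so a larger share of MAS lowers the others. The level of CPS4 itself was higher in HHZ replicate 3, at 31.9 CPM, than in HHZ replicates 1 and 2, at 12.2 and 14.9 CPM. The share of KSL4 was 0.57% (0.118 to 1.66) and 1.04% (0.452 to 2.05) in HHZ replicates 1 and 2, and 1.65% to 4.54% in the other 4 libraries. Its interval in 9311 replicate 3, the lowest of these 4 at 1.65% (1.11 to 2.34), overlapped those of HHZ replicates 1 and 2. The intervals of MAS and CPS4 in HHZ replicate 3 did not overlap those of any other library. These are shares of counts, which depend on gene length, and the intervals cover counting error only.

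**Figure D3:**
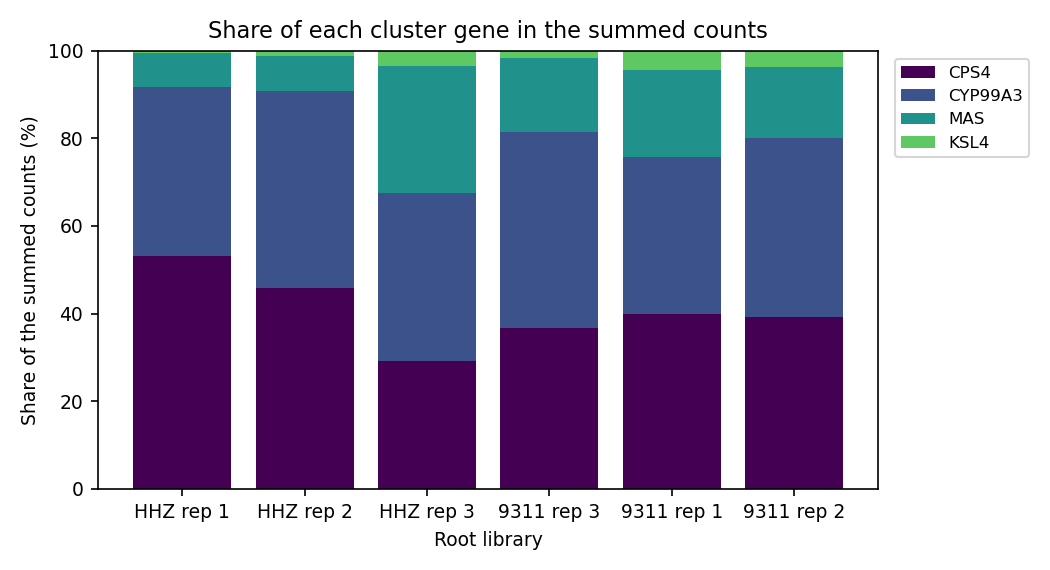
Share (%) of CPS4, CYP99A3, MAS and KSL4 in the summed counts of the cluster in each root library, drawn as stacked bars that add up to 100%. MAS takes 29.1% in HHZ replicate 3 and 7.60% and 8.09% in the other HHZ libraries, while CYP99A3 stays between 35.8% and 45.0%.

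The level of the cluster in HHZ replicate 3 relative to the other HHZ libraries was high among genes in general. On the log2(CPM + 0.5) scale it exceeded the mean of HHZ replicates 1 and 2 by 1.21 for CPS4, 1.83 for CYP99A3, 3.60 for MAS and 2.57 for KSL4, where the median over all genes tested was -0.01 with an SD of 0.738. Ranked by this difference among the 22554 genes, MAS was at place 103, KSL4 at 289, CYP99A3 at 634 and CPS4 at 1253. For KSL4 the added 0.5 exceeds its level in HHZ replicates 1 and 2 (0.131 and 0.341 CPM), which shrinks its difference. As a ratio of CPM, HHZ replicate 3 held 16.2 times the mean of HHZ replicates 1 and 2 for KSL4 and 14.5 times for MAS. HHZ replicate 3 had covered 54.6% (CPS4), 72.8% (CYP99A3), 86.8% (KSL4) and 103% (MAS) of the distance from the other HHZ libraries to the mean of 9311. In 9311, replicate 3 lay below the mean of replicates 1 and 2 for all 4 genes. The differences in log2(CPM + 0.5) were -1.08 for CPS4, -0.74 for CYP99A3, -1.05 for MAS and -1.99 for KSL4. Their median over all genes tested was 0.00455. Ranked from the lowest among the 22554 genes, KSL4 was at place 62, CPS4 at 460, MAS at 496 and CYP99A3 at 1081. These are descriptions of single libraries.

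Without HHZ replicate 3, edgeR called all 4 counted genes higher in 9311, where 6.93% of all genes tested were called in this direction. The log2 fold changes were 2.36 for CPS4 (adjusted p = 0.0199 in edgeR), 2.61 for CYP99A3 (0.0159), 3.83 for MAS (0.00482) and 4.70 for KSL4 (0.0234). Without any one of the other 5 libraries, edgeR called none of the 4, and their log2 fold changes stayed positive, the smallest being 0.88 (MAS without HHZ replicate 1). In edgeR the call on the cluster therefore rests on whether HHZ replicate 3 is kept. For CPS4 and CYP99A3 it also depends on the tool, since DESeq2 called both with all 6 libraries. The direction did not change in any of these fits. Without replicate 3 of both cultivars, an alternative added after the data were seen, all 4 genes were called with log2 fold changes of 2.67 to 5.16, and 9.88% of all genes tested were called higher in 9311.

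**Figure D4:**
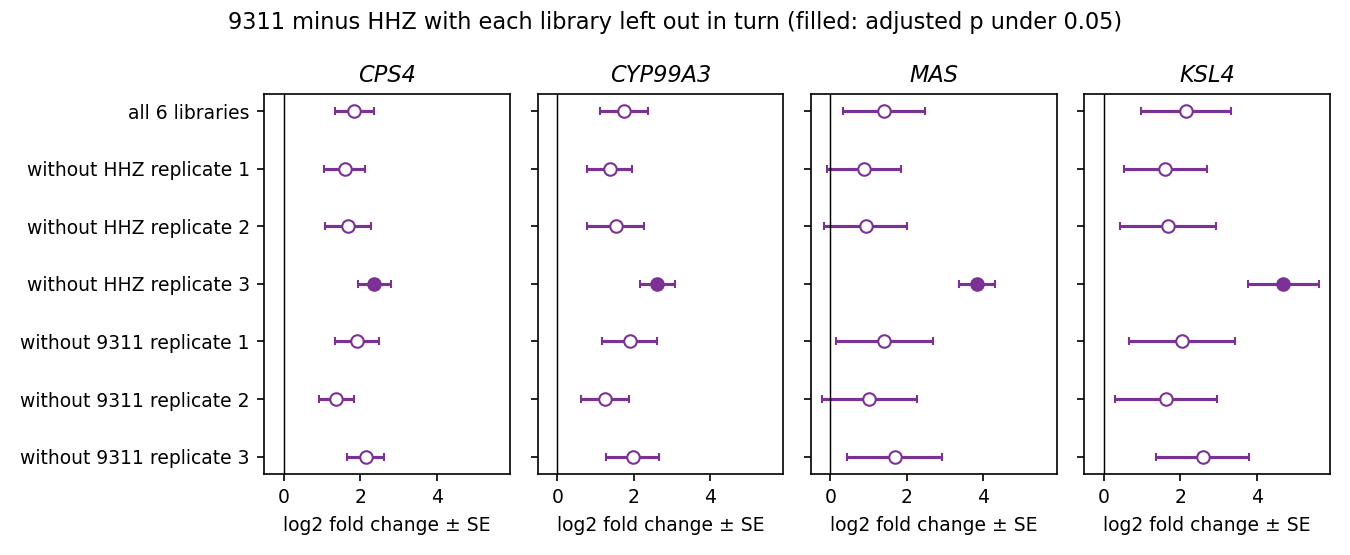
log2 fold change (9311 minus HHZ) with its standard error for CPS4, CYP99A3, MAS and KSL4 from edgeR with all 6 libraries and with each library left out in turn. Filled points have an adjusted p under 0.05, and only the fit without HHZ replicate 3 has them, at 2.36 to 4.70.

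The count table lists 2 other genes between CPS4 and CYP99A2. Os04g0179100, between CYP99A3 and MAS, has no symbol in the files. Its counts were 14, 15 and 208 in the HHZ libraries and 121, 285 and 80 in the 9311 libraries, each from replicate 1 to replicate 3 as numbered. Like MAS, it was many times higher in HHZ replicate 3 than in the other HHZ libraries, and its counts were 0.189 to 0.350 times those of MAS in every library, while its own CPM varied 24.5-fold. Its log2 fold change was 1.24 with a standard error of 1.10 (adjusted p = 0.580 in edgeR), and 3.74 (adjusted p = 0.0148) without HHZ replicate 3. The other gene, Os04g0180300, had at most 2 counts in a library.

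Outside the stretch, the next expressed gene on each side did not share the pattern. Os04g0177600, which directly precedes CPS4, averaged 30.1 CPM in 9311 and 32.5 CPM in HHZ, and edgeR gave a log2 fold change of -0.11 with a standard error of 0.11 (adjusted p = 0.638). Its highest library exceeded its lowest by 1.25-fold. Os04g0181100, the next expressed gene beyond CYP99A2, averaged 90.2 CPM in 9311 and 102 CPM in HHZ and varied 1.32-fold. It had a log2 fold change of -0.18 with a standard error of 0.12 (adjusted p = 0.449 in edgeR). Whether these fold changes differ from those of the cluster was not tested.

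Of the 20 flanking genes, 10 on each side, 9 had no counts in any library, 6 passed the filter and 0 were called in edgeR with all libraries. Their log2 fold changes lay between -0.29 and 0.96. The highest belonged to Os04g0176200, with 21.3 CPM on average in 9311 and 10.9 CPM in HHZ (standard error 0.24, adjusted p = 0.0764 in edgeR), and its cultivars did not overlap. DESeq2 called Os04g0176200 (adjusted p = 0.00983), and so did edgeR without HHZ replicate 3 (adjusted p = 0.0265). Its r with the mean profile of the 4 cluster genes was 0.932, and that of Os04g0182200, on the other side, was 0.887. For the other 4 flanking genes r lay between -0.657 and -0.0999. An r does not measure the size of a change. Os04g0176200 varied 2.87-fold and Os04g0182200 2.05-fold over the libraries, where CPS4, the least variable of the 4 cluster genes, varied 9.05-fold. Os04g0182200 had a log2 fold change of 0.37 with all libraries (adjusted p = 0.465 in edgeR). Without replicate 3 of both cultivars edgeR called it at 0.77 (adjusted p = 0.0463), and Os04g0176200 at 1.34 (adjusted p = 0.00524). In that fit 9.88% of all genes tested were called higher in 9311. The flanks hence held genes with and without a profile shaped like that of the cluster, and those with it changed less.

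**Figure D5:**
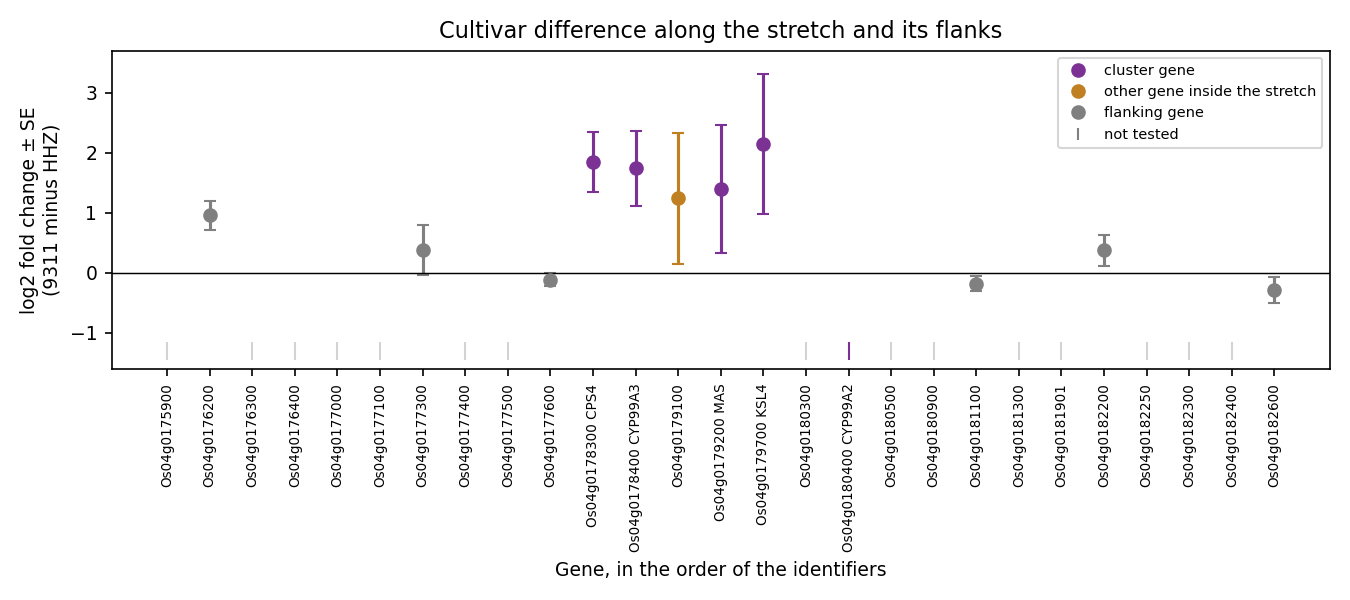
log2 fold change (9311 minus HHZ, all 6 libraries) with its standard error for the genes from Os04g0175900 to Os04g0182600 in the order of their identifiers, with cluster genes in purple, Os04g0179100 in orange, flanking genes in grey and ticks for genes not tested. The cluster genes lie between 1.39 and 2.15, and the 6 flanking genes tested lie between -0.29 and 0.96.

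The profile of the cluster was shared by many genes elsewhere in the genome. Among the 22550 other genes tested, 1044 (4.63%) had an r over 0.9 with the mean standardised profile of the 4 counted genes over the 6 libraries, and Os04g0179100 ranked 282 with an r of 0.961. The most alike was Os07g0182000, with an r of 0.997. Its level was 5.85, 7.24 and 25.4 CPM in the HHZ libraries (replicates 1, 2 and 3) and 35.5, 51.6 and 18.4 CPM in those of 9311. The next was Os08g0428100 with an r of 0.996. In edgeR 0 of the 5 most alike genes were called between the cultivars, against 6.51% of all genes tested. They were chosen for likeness to genes that edgeR did not call, so this count is not a separate result. On deviations from the cultivar means, 1008 genes (4.47%) had an r over 0.9, led by Os07g0194100 (0.999) and Os06g0501900 (0.999). Over 6 libraries these ranks are a description only, and the files give no symbols for these genes.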

How the data were processed

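The authors trimmed the reads with cutadapt, aligned them to IRGSP-1.0 with STAR, and deposited raw read counts per gene of an Ensembl Plants annotation, neither normalized nor pooled. The submitters' processing notes name STAR 2.5.3a and Trim Galore, while the paper names another STAR version. The strand setting and the annotation release are not given in the sources used here, which leaves overlapping and antisense genes uncertain.

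The libraries were grouped by cultivar from their titles. The difference 9311 minus HHZ was fitted in edgeR 4.0.16 under R 4.3.3 (TMM, filterByExpr with a minimum count of 10, quasi-likelihood test, Benjamini-Hochberg adjustment over 22554 genes, threshold 0.05). The TMM factors ranged from 0.919 to 1.10. Standard errors are the fold change on the log2 scale over the square root of F. Correlations used log2(CPM + 0.5) and all 720 permutations of the 6 libraries. Alternatives comprised other normalizations, filters, dispersion and threshold, limma-voom (limma 3.58.1), DESeq2 1.42.0, the replicate block and each library left out. The fit was also run on simulated counts, with an outcome not given here. No simulated library was made to stand apart as HHZ replicate 3 does, so that case was not tested.

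The members and lists were chosen with earlier results of these data known. Named were the 5 cluster genes, the neighbours inside the stretch, flanking genes that were called in any fit or nearest and expressed, and the genes most alike in profile. Os04g0180300 and Os04g0182200 were named after their values were seen, and of the 5 most alike genes by each measure 2 are printed. Only 1 of the 36844 identifiers was found in the RefSeq table, so other genes of the diterpenoid pathway were not analysed here.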

Additional observations from a re-analysis of the deposited data

How the results depend on the processing

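All 4 counted cluster genes kept their direction in every alternative in which they could be tested: 17 for CPS4, CYP99A3 and MAS, and 16 for KSL4, which a minimum of 10 counts per library leaves out. The other dispersion estimate and the threshold of 0.01 left the fold changes as they were, so neither could change the direction. The alternatives reuse the same libraries and are not independent of each other. None became called except with DESeq2, without HHZ replicate 3 and without replicate 3 of both cultivars. The number of cluster genes called was 0, and 2 with DESeq2, 0 to 4 with each library left out (4 without HHZ replicate 3), and 4 without replicate 3 of both cultivars. Their median log2 fold change was 1.79, and 2.23 in limma-voom, 2.33 with the replicate block, 1.30 to 3.22 with each library left out (the highest without HHZ replicate 3), and 3.50 without replicate 3 of both cultivars. The neighbours called numbered 0 of 7 tested, and 1 of 13 fitted with DESeq2. With each library left out they numbered 0 to 2 of 7 (2 without HHZ replicate 3). Without replicate 3 of both cultivars they numbered 3 of 7: Os04g0179100 inside the stretch and the flanking genes Os04g0176200 and Os04g0182200. The shares of all genes called higher in 9311 were 5.76% with DESeq2, 6.93% without HHZ replicate 3 and 9.88% without replicate 3 of both cultivars. Over all genes, 1468 were called, and 2885 with DESeq2, 563 with a minimum of 10 counts per library, 635 at an adjusted p under 0.01, 470 with the replicate block, 761 to 2724 with each library left out, and 3676 without replicate 3 of both cultivars. The median r between the cluster genes was 0.958, and 0.937 on deviations from the cultivar mean and 0.928 to 0.985 with each library left out. The ratio of the summed CPM was 3.30, and 2.38 to 6.53 with each library left out, the highest without HHZ replicate 3. Beyond what the fewer libraries or genes bring, the causes were not tested. The fit without HHZ replicate 3 rests on 2 HHZ libraries. With library totals only, the share of all calls higher in 9311 was 43.6%, against 49.9%.

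Between libraries of different cultivars with the same number, deviations from the cultivar means had an r over genes of -0.135, 0.0734 and -0.154. No pairing by number was seen in these values, and whether equal numbers mark a shared batch was not tested. In the replicate block fit edgeR called 0 cluster genes (adjusted p between 0.218 and 0.439).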
